A study of Mus musculus with 12 samples.

Results

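The 9 genes described here belong to the Notch pathway of splenic conventional dendritic cells (cDCs). They are the receptors Notch1, Notch2 and Notch4, the receptor-cleaving protease Adam10, the DNA-binding partner Rbpj, the target genes Hes1 and Nrarp, and the Deltex genes Dtx1 and Dtx4. They were taken by gene symbol from the 55322 rows of the deposited expression table. Of these 9 genes, 7 were tested, among 12434 genes in all, the test being kept to genes that reached 1 FPKM in 3 or more of the 12 libraries. Notch1 and Nrarp stayed below that level and are given as values. FPKM is a read count divided by gene length and by library total.

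The libraries were made from total RNA of cDCs taken from mouse spleen, in 4 groups of 3. The sample titles name L-cDC1 and M-cDC1 for one subset, and L-cDC2 and M-cDC2 for the other. The titles do not spell out L and M, while the series title speaks of cDCs of lymphoid origin. All 4 groups carry the genotype Il7r-cre; Rosa26-lsl-tdTomato in the labels, in which a Cre recombinase driven by the Il7r gene, a receptor gene of lymphoid progenitors, can switch on a red reporter. The growth protocol, for its part, names WT C57BL/6J mice of 7 to 8 weeks. The labels do not say how the reporter was used, how L and M cells were gated, or whether libraries of 1 group came from separate animals. P-values therefore measure the spread between these libraries, which may be technical. Going by the genotype labels no group lacks Cre, but the growth protocol leaves this unsettled. In bulk RNA of this kind, fewer cells of a type and less RNA per cell cannot be told apart.

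Notch receptors are cut when a Delta-like or Jagged ligand on a neighbouring cell binds them: Adam10 removes the outer part, gamma-secretase frees the intracellular domain, and this domain joins Rbpj on DNA to switch on genes such as Hes1 and Nrarp. Deltex proteins are ubiquitin ligases that act on Notch signalling, and Dtx1 is itself a known target gene in lymphocytes. In the mouse spleen, Notch2 and Rbpj are known to be needed for the Esam-high fraction of cDC2, the subset of cDCs marked by Sirpa, whereas cDC1 are marked by Xcr1 and present antigen to CD8 T cells.

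The labelled subsets carried their defining markers. Xcr1 lay between 181 and 249 FPKM in the 6 cDC1 libraries and between 0.773 and 2.08 FPKM in the 6 cDC2 libraries. Sirpa lay between 0.199 and 1.50 FPKM in cDC1 and between 171 and 229 FPKM in cDC2. Transcripts of other cell types moved with the L and M labels. The summed level of 13 B-cell markers was 607, 647 and 958 FPKM in L-cDC1 against 326, 313 and 360 FPKM in M-cDC1, and 969, 3449 and 1655 FPKM in L-cDC2 against 447, 408 and 412 FPKM in M-cDC2. In M-cDC1 libraries Pax5 and Iglc2 were at 0. The sum of 10 T- and NK-cell markers was 11.1 to 20.4 FPKM in L-cDC1 against 0.156 to 0.339 FPKM in M-cDC1, and 38.1 to 104 FPKM in L-cDC2 against 0.974 to 1.38 FPKM in M-cDC2. In M-cDC1, Klrb1c, Cd3g and Trac were at 0, and in M-cDC2, Pax5, Trbc2, Cd3g and Gzma were at 0. The sum of 9 monocyte and macrophage markers was lower with the L label, at 327 to 337 FPKM in L-cDC1 against 428 to 488 FPKM in M-cDC1, and at 340, 474 and 316 FPKM in L-cDC2 against 1146, 1216 and 1009 FPKM in M-cDC2. Of 6 tested, 0 were called by limma in cDC1, with 3 at an unadjusted p under 0.05, and 2 were lower in cDC2, Csf1r (-1.41) and Lyz2 (-1.93). In L-cDC1 Cd5l was at 0, and in M-cDC1 Fcgr1 was. The part of these transcripts in the L and M differences of Notch genes was not tested. Library totals ran from 15879864 to 24498235 reads.

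Rbpj recognises a core of TGGGAA, so promoters of the 9 genes were searched for these letters on both strands, and for the longer GTGGGAA, which contains the core. RefSeq promoters of mouse build GRCm38.p6, 250 bases before to 50 after each gene start, were at hand for 7 of the 9 genes, as 8 sequences. Dtx4 and Hes1 had no entry. The core stood in the promoters of 1 gene, Rbpj itself, and GTGGGAA in none of the 8. Of all 32851 promoters of this length, 25.56% held the core, 3.79% held it at least 2 times and 6.38% held GTGGGAA. The first Rbpj promoter is shown because it holds the core 2 times, once on each strand, at -149 and -65 relative to the gene start, with both matches in capitals. The promoters of Dtx1 and Notch4 are shown because these genes, chosen for display after their values were seen, differ most between the subsets below. They hold no match and are printed without capitals. A match is a description of letters, not a binding site, and the absence of one concerns this window alone.
Rbpj promoter, chr5:53590096-53590395, + strand: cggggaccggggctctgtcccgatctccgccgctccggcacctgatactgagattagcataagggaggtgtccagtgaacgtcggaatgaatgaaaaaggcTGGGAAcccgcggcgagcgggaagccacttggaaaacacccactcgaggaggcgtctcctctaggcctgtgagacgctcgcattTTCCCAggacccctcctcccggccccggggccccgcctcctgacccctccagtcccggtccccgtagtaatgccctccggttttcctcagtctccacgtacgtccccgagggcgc
Dtx1 promoter, chr5:120711620-120711919, - strand: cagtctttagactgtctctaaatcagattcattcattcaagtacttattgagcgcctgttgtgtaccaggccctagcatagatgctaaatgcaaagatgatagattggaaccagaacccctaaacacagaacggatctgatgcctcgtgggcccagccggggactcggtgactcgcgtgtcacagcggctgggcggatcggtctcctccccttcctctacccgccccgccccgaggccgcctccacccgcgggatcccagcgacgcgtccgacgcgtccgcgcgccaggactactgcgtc
Notch4 promoter, chr17:34564045-34564344, + strand: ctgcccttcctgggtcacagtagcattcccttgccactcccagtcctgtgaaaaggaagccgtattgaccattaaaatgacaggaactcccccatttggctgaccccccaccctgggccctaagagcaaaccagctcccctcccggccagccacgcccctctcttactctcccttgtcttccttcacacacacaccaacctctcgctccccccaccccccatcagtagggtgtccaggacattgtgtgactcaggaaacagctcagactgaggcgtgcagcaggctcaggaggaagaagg

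Notch2 was the receptor with the most even level. It lies on chromosome 3 from 97920843 to 98057677 in the coordinates of the deposited table, whose build is not given in the sources used here, as for all positions below except the promoters. Notch2 had 17.6, 19.0 and 18.5 FPKM in L-cDC1, against 18.9, 13.8 and 21.5 FPKM in M-cDC1. It had 23.9, 19.6 and 19.8 FPKM in L-cDC2, against 22.0, 22.4 and 18.8 FPKM in M-cDC2. The ranges of neighbouring groups overlapped throughout the order of means, from L-cDC2 down to M-cDC1. L-cDC1 and L-cDC2, which are not neighbours in that order, had ranges apart, at most 19.0 FPKM against at least 19.6 FPKM. On the log2(FPKM + 1) scale used for all differences, L minus M was 0.05 in cDC1 (95% interval -0.28 to 0.37) and -0.00135 in cDC2 (-0.33 to 0.32), and cDC1 minus cDC2 was -0.18 in L (-0.51 to 0.14) and -0.23 in M (-0.56 to 0.09). None of these 4 differences passed the limma test with Benjamini-Hochberg adjustment over all tested genes, with adjusted p between 0.257 and 0.999. A same-strand gene model, Gm42820, overlaps 541 bases of Notch2 exons and reached at most 2.06 FPKM.

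Notch4, a receptor best known from vessel endothelium, was a cDC1 transcript. Its gene lies on chromosome 17 from 34783242 to 34807477. Notch4 had 12.6, 17.9 and 25.3 FPKM in L-cDC1, against 0.531, 1.05 and 0.930 FPKM in L-cDC2. It had 12.1, 6.11 and 6.25 FPKM in M-cDC1, against 0.360, 0.867 and 0.589 FPKM in M-cDC2. Each cDC1 library was above each cDC2 library. The ratio of group means was 22.3 in L and 13.5 in M. The cDC1 minus cDC2 difference was 3.38 (SE 0.28) in L and 2.46 (SE 0.28) in M, with limma adjusted p = 3.42e-07 and 8.06e-06. As the cDC2 libraries reached at most 1.05 FPKM, Notch4 passed the filter of 1 FPKM through its cDC1 libraries. A filter of this kind favours a difference between subsets. With no filter on low values both calls held, with limma adjusted p = 2.85e-05 in L and 0.000274 in M.

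Within cDC1, Notch4 averaged 18.6 ± 6.38 FPKM in L and 8.17 ± 3.44 FPKM in M (SD, n = 3 each), a ratio of 2.28. The ranges of the groups did not overlap, though the highest M-cDC1 library, at 12.1 FPKM, came close to the lowest L-cDC1 library, at 12.6 FPKM. The L minus M difference was 1.11 (SE 0.28, 95% interval 0.51 to 1.70) and did not pass the test, with limma adjusted p = 0.125. Without M-cDC1 replicate 1 it was 1.40 and passed, with limma adjusted p = 0.0295, the lowest of the 20 alternatives, whose highest was 0.470. In cDC2 the L minus M difference was 0.19 (SE 0.28) with limma adjusted p = 0.883. The sum of 11 endothelial and stromal markers was 13.8 to 16.8 FPKM in L-cDC1, 14.2 to 14.8 FPKM in M-cDC1, 25.4 to 27.5 FPKM in L-cDC2 and 19.9 to 21.2 FPKM in M-cDC2, and was mostly Pecam1. Of the 3 tested markers, Pecam1 was lower in cDC1 under both labels (-0.83 in L, -0.54 in M) and Kdr in L (-0.86), while Vwf was higher in L (0.51, limma adjusted p = 0.0428). Vwf lay between 1.06 and 1.66 FPKM in the 6 cDC1 libraries and between 0.497 and 0.785 FPKM in the 6 cDC2 libraries, so it too passed the filter through cDC1. Emcn was at 0 in every library of both subsets. Also at 0 were Col3a1, Tie1, Col1a1 and Pdgfrb in L-cDC1, and Col3a1, Tek and Pdgfrb in M-cDC1. In cDC2, Col3a1, Tek and Tie1 were at 0 in L, and Tek, Tie1 and Col1a1 in M. The part of endothelial transcripts in the Notch4 level was not tested.

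Notch1 was at a low level in every group and was not tested with the other genes. It lies on chromosome 2 from 26347915 to 26406675 and shares 1226 bases with an antisense transcript, 0610009E02Rik, whose reads the kits, which do not mark strand, cannot separate. Notch1 had 0.624, 0.552 and 0.514 FPKM in L-cDC1, against 0.00590, 0.413 and 0.124 FPKM in L-cDC2. It had 0.885, 0.425 and 0.627 FPKM in M-cDC1, against 0.00860, 0.0841 and 0.0508 FPKM in M-cDC2. Every cDC1 library was above every cDC2 library, but L-cDC2 replicate 2, at 128 reads, came near the lowest cDC1 library. That library also had the highest sums of B-cell markers and of T- and NK-cell markers, and their part in its Notch1 level was not tested. With no filter on low values, which left 28712 genes, cDC1 minus cDC2 for Notch1 was 0.64 in M (limma adjusted p = 0.0107) and 0.42 in L (limma adjusted p = 0.0736).

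Taken as shares of the summed FPKM of Notch1, Notch2, Notch3 and Notch4, Notch4 made up 40.9, 47.8 and 57.1% in L-cDC1 and 38.1, 30.1 and 22.0% in M-cDC1. In cDC2 its share was 2.17 to 4.98% in L and 1.61 to 3.71% in M. Notch2 held 93.0 to 97.7% in L-cDC2 and 95.9 to 98.4% in M-cDC2. The cDC1 libraries thus carried a pair of receptor transcripts within the same order of level per length, and the cDC2 libraries mostly Notch2. The Notch4 shares of L-cDC1 and M-cDC1 did not overlap, and those of the cDC2 groups did.

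**Figure D1:**
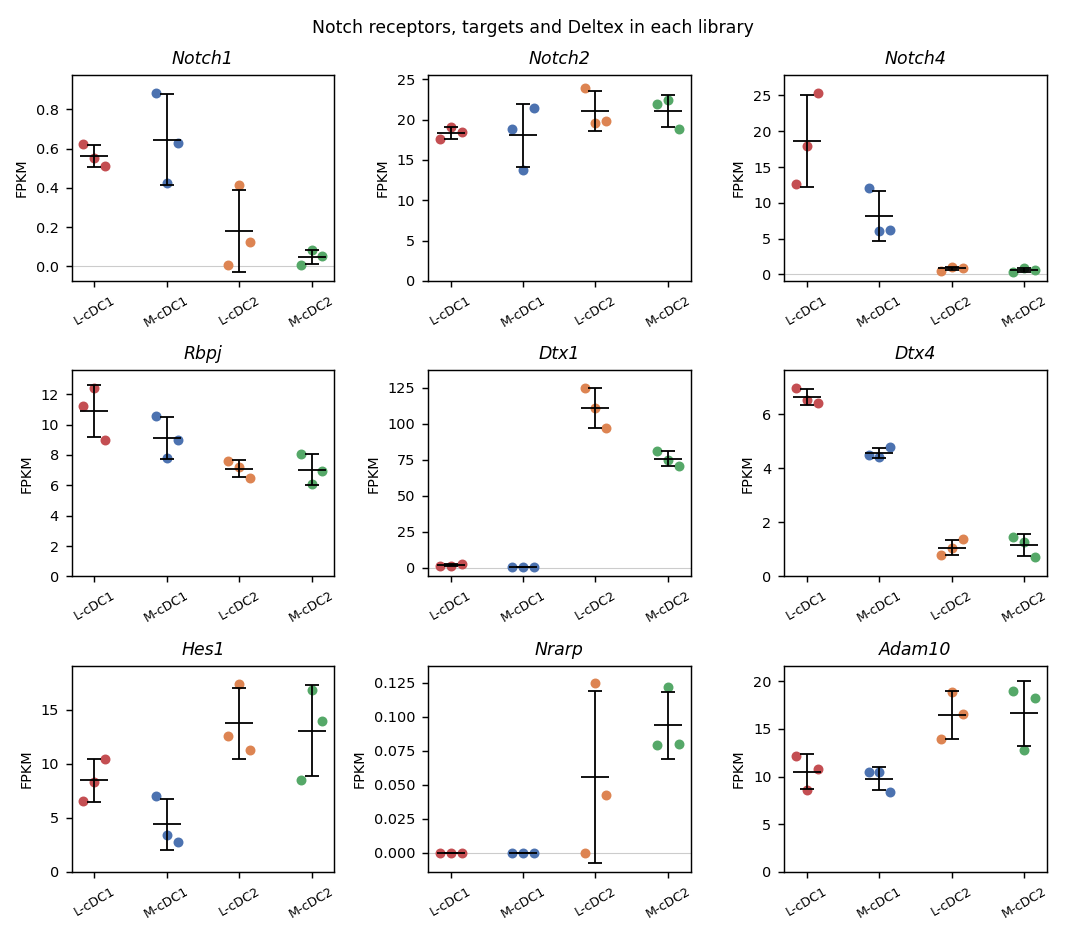
FPKM of each of the 9 genes in each of the 12 libraries, with the 4 groups along the x axis, L before M and cDC1 before cDC2; points are libraries, long horizontal bars are group means and whiskers are 1 SD either way (n = 3). Notch4 and Dtx4 are high in the 6 cDC1 libraries and Dtx1 in the 6 cDC2 libraries, while Notch2 lies between 13.8 and 23.9 FPKM in all 12.

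Adam10, the protease of the first cut, was lower in cDC1. The gene lies on chromosome 9 from 70586279 to 70687511. It had 12.2, 8.61 and 10.8 FPKM in L-cDC1, against 14.0, 18.9 and 16.6 FPKM in L-cDC2. It had 10.5, 10.5 and 8.37 FPKM in M-cDC1, against 18.9, 12.7 and 18.2 FPKM in M-cDC2. No cDC1 library reached a cDC2 library of the same label. The cDC1 minus cDC2 difference was -0.60 (SE 0.18) in L and -0.70 (SE 0.18) in M, with limma adjusted p = 0.0157 and 0.00696. The L call ended in 5 alternatives, namely without L-cDC1 replicate 2, without L-cDC2 replicate 2, under median-of-ratios scaling (limma adjusted p = 0.0864), under quantile normalization (limma adjusted p = 0.0910) and under a correction for transcript GC content that was added after the data were seen (limma adjusted p = 0.182). The M call ended under quantile normalization, with limma adjusted p = 0.0564. L minus M was 0.09 in cDC1 and -0.00443 in cDC2, neither past the test.

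Rbpj, the DNA-binding partner of the cleaved receptor, was somewhat higher in cDC1. It lies on chromosome 5 from 53623494 to 53814704. Rbpj had 11.3, 12.4 and 9.01 FPKM in L-cDC1, against 7.60, 7.18 and 6.48 FPKM in L-cDC2. It had 10.5, 7.80 and 9.01 FPKM in M-cDC1, against 8.07, 6.07 and 6.97 FPKM in M-cDC2. In L the ranges were apart, and in M they overlapped. The cDC1 minus cDC2 difference was 0.55 (SE 0.16) in L, with limma adjusted p = 0.0143, and 0.33 (SE 0.16) in M, with limma adjusted p = 0.12. The L call was lost without L-cDC1 replicate 2 (adjusted p = 0.0600) or L-cDC2 replicate 3 (0.0532), whereas the M difference passed after median-of-ratios scaling (limma adjusted p = 0.0184), quantile normalization (0.00836) and GC correction (0.0120). L minus M for Rbpj was 0.23 in cDC1 and 0.01 in cDC2, neither past the test.

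Dtx1 spanned the widest range of the 9 genes. It lies on chromosome 5 from 120818267 to 120849992. Dtx1 had 1.23, 1.02 and 2.31 FPKM in L-cDC1, against 125, 111 and 96.9 FPKM in L-cDC2. It had 0.135, 0.127 and 0.104 FPKM in M-cDC1, against 81.3, 75.1 and 70.7 FPKM in M-cDC2. No 2 of the 4 groups overlapped, and the means ran in the order L-cDC2, M-cDC2, L-cDC1 and M-cDC1. The mean in cDC2 was 72.9 times that in cDC1 for L and 619.8 times for M. The cDC1 minus cDC2 difference was -5.50 (SE 0.17) in L and -6.09 (SE 0.17) in M, with limma adjusted p = 1.73e-11 and 7.88e-12.

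Dtx1 was also called between L and M. In cDC1 it averaged 1.52 ± 0.693 FPKM in L and 0.122 ± 0.0164 FPKM in M (SD, n = 3 each), a ratio of 12.4 at a low level. These values rest on 123, 111 and 233 reads in the L-cDC1 libraries and on 16, 12 and 12 reads in the M-cDC1 libraries. The L minus M difference was 1.13 (SE 0.17, 95% interval 0.76 to 1.50), with limma adjusted p = 0.00800. The pseudocount of 1 holds this value down, and with a pseudocount of 0.1 it was 2.79. The call was lost when no filter was applied (limma adjusted p = 0.0706) and when the cDC1 libraries were fitted alone (0.243), and with any 1 library left out it stayed between 0.00840 and 0.0432. In cDC2, Dtx1 averaged 111 ± 13.8 FPKM in L and 75.7 ± 5.34 FPKM in M (SD, n = 3 each). That difference of 0.54 (SE 0.17) did not pass, with limma adjusted p = 0.195, though each L library was above each M library. On recovered reads with limma-voom it passed, with adjusted p = 0.0140.

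Because Dtx1 is so high in cDC2, its trace in cDC1 was set beside other cDC2 transcripts. The cDC1 mean of Dtx1 was 1.37% of the cDC2 mean in L and 0.161% in M. Sirpa, the surface marker of cDC2, stood at 0.449% in L and 0.170% in M, and Clec4a4, a lectin of the Esam-high cDC2, at 0.197% in L and 0.125% in M. Irf4, a transcription factor of cDC2 that lymphocytes also use, stood at 5.38% in L and 0.453% in M. Itgam stood at 2.41% in L and 0.624% in M, and Cd209a at 2.91% in L and 1.90% in M. Esam and Cd4 stood at 9.38 and 3.42% in L and at 11.6 and 3.19% in M. The share was higher in L for Dtx1, Irf4, Itgam, Sirpa, Clec4a4, Cd209a and Cd4 and lower in L for Esam. A share depends on the cDC2 mean as well. Cd209a itself was lower in L-cDC1 (4.98 FPKM) than in M-cDC1 (6.66 FPKM), beside 171 FPKM in L-cDC2 and 351 FPKM in M-cDC2. The cDC2 means of Sirpa, Irf4 and Itgam were also lower in L than in M. None of Sirpa, Irf4, Cd209a, Clec4a4 and Itgam was called between L-cDC1 and M-cDC1. B-cell markers rose with the L label in the same libraries: 7 of 11 tested were called higher in L-cDC1. So did T- and NK-cell markers, with 3 of 7 tested called higher, where 0.354% of all tested genes were. The part of either marker list in the Dtx1 trace was not tested.

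**Figure D2:**
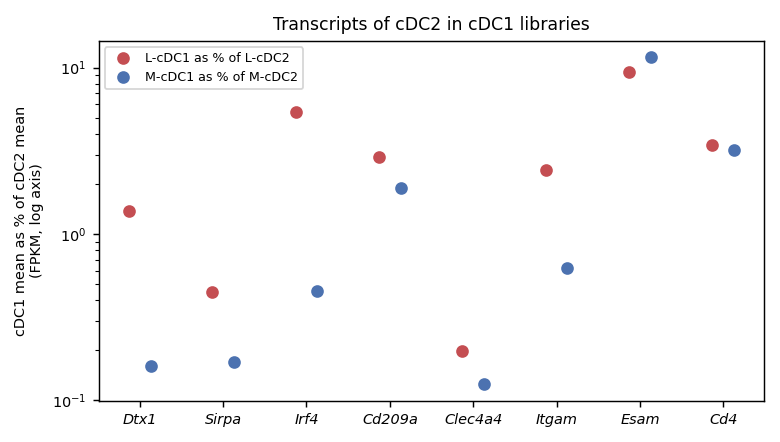
Mean FPKM in cDC1 as a percentage of the mean in cDC2 of the same label, on a log axis, for Dtx1 and 7 other transcripts of cDC2; red points are L and blue points are M. Dtx1 stands at 1.37% in L and 0.161% in M, Irf4 (5.38 and 0.453%), Itgam (2.41 and 0.624%) and Sirpa (0.449 and 0.170%) are also higher in L, and Esam and Cd4 lie close together.

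Dtx4, a second Deltex ligase, ran the other way from Dtx1. It lies on chromosome 19 from 12443702 to 12478818. Dtx4 had 6.96, 6.52 and 6.43 FPKM in L-cDC1, against 0.787, 1.05 and 1.37 FPKM in L-cDC2. It had 4.48, 4.43 and 4.78 FPKM in M-cDC1, against 1.48, 1.29 and 0.721 FPKM in M-cDC2. All cDC1 libraries were above all cDC2 libraries. The cDC1 minus cDC2 difference was 1.89 (SE 0.18) in L and 1.38 (SE 0.18) in M, with limma adjusted p = 1.76e-06 and 3.88e-05. Within cDC1 the L and M ranges were apart, at means of 6.64 ± 0.285 and 4.56 ± 0.186 FPKM (SD, n = 3 each), yet the L minus M difference of 0.46 (SE 0.18) did not pass, with limma adjusted p = 0.395. In cDC2 it was -0.06 (SE 0.18).

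Of the summed FPKM of the pair of Deltex genes, Dtx1 made up 15.1, 13.5 and 26.4% in L-cDC1 and 2.93, 2.79 and 2.13% in M-cDC1. It made up 98.6 to 99.4% in L-cDC2 and 98.2 to 99.0% in M-cDC2. The sum itself was 7.54 to 8.74 FPKM in L-cDC1, 4.56 to 4.88 FPKM in M-cDC1, 98.3 to 125 FPKM in L-cDC2 and 71.4 to 82.8 FPKM in M-cDC2. Dtx4 was thus the more abundant Deltex transcript per length in cDC1, and Dtx1 in cDC2.

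**Figure D3:**
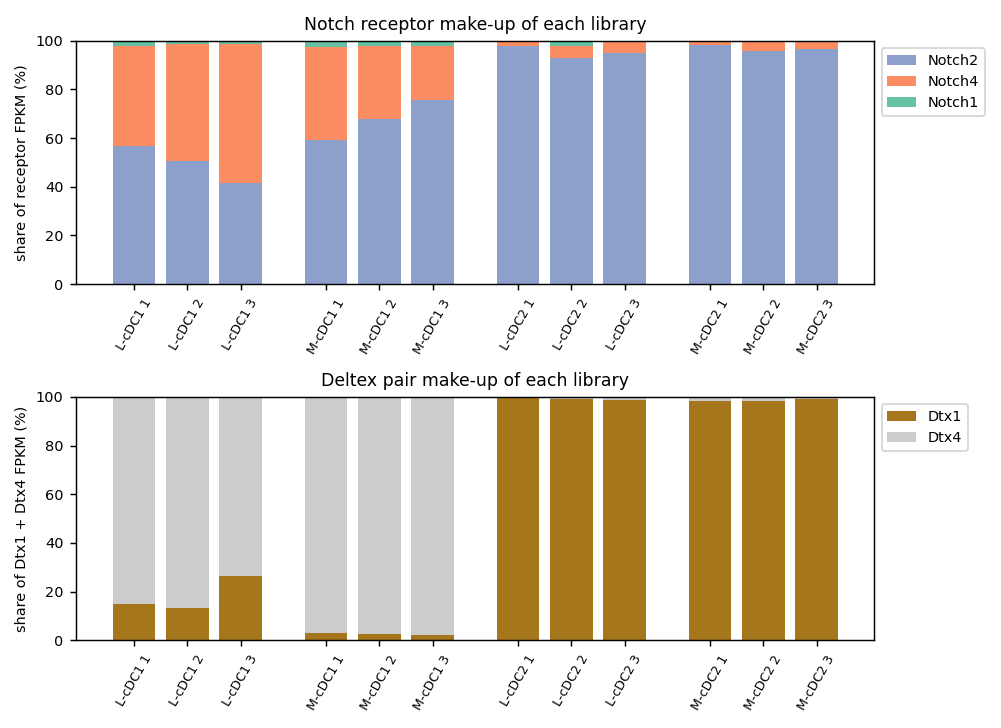
Share of each receptor in the summed FPKM of the Notch receptors, and of Dtx1 and Dtx4 in their sum, in percent for each library, as stacked bars with cDC1 libraries left of cDC2 libraries and L left of M in each. Notch4 takes 22.0 to 57.1% of receptor FPKM in cDC1 and at most 4.98% in cDC2, and Dtx1 takes at least 98.2% of the Deltex pair in cDC2.

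Hes1, a repressor that Notch switches on in many tissues, was lower in cDC1 than in cDC2, a difference that passed the test under the M label. It lies on chromosome 16 from 29883202 to 29886614. Hes1 had 6.57, 8.33 and 10.5 FPKM in L-cDC1, against 12.5, 17.4 and 11.2 FPKM in L-cDC2. It had 7.06, 3.38 and 2.75 FPKM in M-cDC1, against 8.46, 16.8 and 14.0 FPKM in M-cDC2. The ranges of cDC1 and cDC2 were apart under both labels. The cDC1 minus cDC2 difference was -1.42 (SE 0.29) in M, with limma adjusted p = 0.00180, and -0.64 (SE 0.29) in L, with limma adjusted p = 0.103. The L difference passed when the L libraries were fitted alone, with limma adjusted p = 0.0442. The interaction, explained below, was 0.78 (SE 0.42) with limma adjusted p = 0.653. The subset difference of Hes1 was therefore not shown to depend on the label. L minus M in cDC1 was 0.87 (SE 0.29) and did not pass, with limma adjusted p = 0.302, and M-cDC1 replicate 1 overlapped the L-cDC1 range. That same library had the highest Notch4 level among the M-cDC1 libraries, and L-cDC1 replicate 3 had the highest level of both genes in cDC1. L-cDC1 replicate 3 also had the highest Dtx1 level and the highest B-cell marker sum (958 FPKM) of the L-cDC1 libraries. Of the 12 libraries it leaned most towards GC-rich transcripts, as given below. A link between Hes1 and Notch4 was not tested.

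Nrarp, a feedback inhibitor of Notch that is induced with Hes1 in other mouse tissues, was nearly silent. The gene lies on chromosome 2 from 25070770 to 25073351, where an antisense transcript, Gm38287, overlaps 2051 bases and stood at 0 FPKM. Nrarp had 0 reads in all 6 cDC1 libraries. It had 0, 0.124 and 0.0427 FPKM in L-cDC2 and 0.0790, 0.122 and 0.0799 FPKM in M-cDC2, from at most 7 reads. For Nrarp, the 3 reads that a count of 0 allows were worth 0.0517 to 0.0650 FPKM in the cDC1 libraries, a limit of counting error only. With no filter on low values, cDC1 minus cDC2 for Nrarp was -0.13 in M (limma adjusted p = 0.0410) and -0.08 in L (limma adjusted p = 0.224), on 14 reads in all of M-cDC2 and 9 in all of L-cDC2.

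Set against all genes, the counts of called members were as follows. The members, and the wider list below, were chosen with earlier results of these data known. Their counts and medians are therefore descriptions and not a test against all genes. Between L-cDC1 and M-cDC1, 1 of the 7 tested members was called, Dtx1, where 0.394% of all tested genes were called by limma at an adjusted p under 0.05. It was higher in L, where 0.354% of all genes were called higher and 0.0402% lower. The median L minus M difference of the 7 was 0.46, beside 0.02 over all tested genes, and 3 of 7 (Notch4, Dtx1 and Dtx4) had ranges that did not overlap, where 13.9% of all tested genes had such ranges. Between L-cDC2 and M-cDC2, 0 of 7 were called by limma, where 1.83% of all genes were (1.04% higher, 0.788% lower), and 1 of 7, Dtx1, had an unadjusted p under 0.05, where 10.2% of all genes did. With limma-voom, 1 of 7 was called. The median difference of the 7 was 0.01, beside 0.03 over all genes, and Dtx1 alone had ranges apart, where 16.9% of all genes did.

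Between L-cDC1 and L-cDC2, 5 of 7 members were called, where 39.5% of all tested genes were. Notch4, Rbpj and Dtx4 were higher in cDC1, where 12.9% of all genes were, and Dtx1 and Adam10 were lower, where 26.6% of all genes were. All 7 had ranges apart, where 48.6% of all genes did. Without L-cDC1 replicate 2 the count was 3, as Rbpj and Adam10 lost their calls. Between M-cDC1 and M-cDC2, 5 of 7 were called, where 38.1% of all genes were: Notch4 and Dtx4 higher, where 12.7% were, and Dtx1, Hes1 and Adam10 lower, where 25.4% were. Here 5 of 7 had ranges apart, where 51.1% of all genes did. The median cDC1 minus cDC2 difference of the members was -0.18 in L and -0.23 in M, beside -0.19 and -0.18 over all tested genes. That shift of all genes depended on scaling: it was -0.04 in L and -0.03 in M after median-of-ratios scaling, and 0.02 in L and 0.04 in M after quantile normalization. Among all calls, the share higher in cDC1 was 32.7% in L and 33.2% in M as deposited, 48.7 and 48.9% after median-of-ratios scaling, and 52.6 and 53.4% after quantile normalization. Notch4, Dtx1 and Dtx4 kept their calls in both subset comparisons under all 20 alternatives.

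The interaction asks whether L and M differ by another amount in cDC1 than in cDC2, and is positive where the L minus M value is greater in cDC1. It was called for 0 of 7 members by limma, where 0.298% of all tested genes were called, 0.193% as positive and 0.105% as negative. At an unadjusted p under 0.05 stood Notch4, at 0.91 (SE 0.39), and Dtx1, at 0.59 (SE 0.24), where 8.53% of all genes did, and limma-voom called 0 of 7. With a pseudocount of 0.1 the interaction of Dtx1 was 2.24 and passed, with limma adjusted p = 0.0226. No member was thus shown to differ between L and M by another amount in cDC1 than in cDC2 at the pseudocount of 1.

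**Figure D4:**
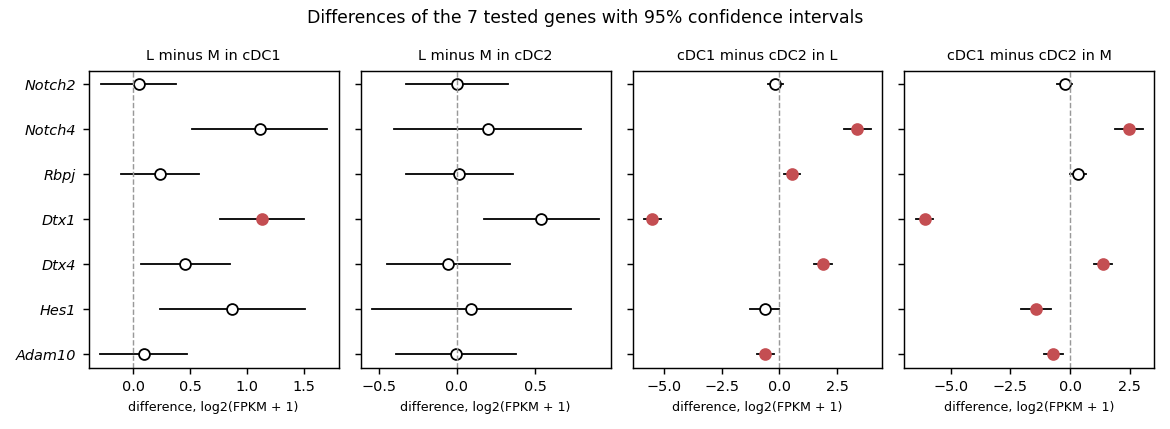
Log2(FPKM + 1) differences of the 7 tested members in 4 comparisons, with 95% confidence intervals; filled red points passed the limma test at an adjusted p under 0.05 and open points did not. Dtx1 is the 1 member filled for L minus M in cDC1, none is filled for L minus M in cDC2, and 5 are filled for cDC1 minus cDC2 under each label.

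Transcript GC content, which can shift amplified libraries, was high for the genes that varied most in cDC1: 62.5% for Dtx1 and 61.2% for Notch4, at the 99.0 and 98.4 percentiles of the tested genes with a value. With each library corrected for transcript GC, an alternative added after the data were seen, L minus M in cDC1 was 1.01 for Dtx1 (limma adjusted p = 0.00447) and 0.997 for Notch4 (limma adjusted p = 0.126).

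The gene models whose group means most resembled those of a member were found by the root-mean-square difference over the 4 group means, among 7244 genes, each centred on its own mean. Nearest to Notch4 were P3h2 (0.185), Hba-a1 (0.235) and Sema4f (0.266). Hba-a1 encodes a hemoglobin chain and has a near-identical copy, so its reads may be split. Its level was 18.1 ± 9.07 FPKM in L-cDC1, 9.66 ± 0.913 FPKM in M-cDC1 and at most 1.53 FPKM in any cDC2 library. Nearest to Dtx1 were Lysmd2 (0.263), Cybb (0.267), the phagocyte oxidase subunit, and Cyp4f16 (0.294). Nearest to Dtx4 were Camk1d (0.0674), Cpne2 (0.0787) and Mycl (0.0849), the last a Myc-family gene of cDC1. Nearest to Hes1 were Klhl17 (0.0355) and Kcna3 (0.0443).

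Around the members, a wider list of 63 pathway genes was read in the same fit, of which 45 were tested. Between L and M, limma called 0 of 45 in cDC1 and 0 of 45 in cDC2, where 0.394 and 1.83% of all tested genes were called, and limma-voom also called 0 and 0. At an unadjusted p under 0.05 stood 3 and 5 of the 45, where 10.3 and 10.2% of all tested genes did. Between cDC1 and cDC2, 16 were called in L, 5 higher and 11 lower, and 22 in M, 6 higher and 16 lower, where 39.5 and 38.1% of all tested genes were called. After quantile normalization the split was 11 higher and 9 lower in L, and 8 higher and 9 lower in M. After median-of-ratios scaling it was 8 higher and 10 lower under each label. The interaction was called for 0 of 45 by limma and by limma-voom, where limma called 0.298% of all tested genes, and 5 of 45 had an unadjusted p under 0.05, where 8.53% of all tested genes did. These lists held 4 genes higher under both labels, 10 lower under both and 0 in opposite directions. With no interaction called, a gene called under a single label was not shown to differ between the labels. The median difference of the 45 was -0.21 in L and -0.30 in M, beside -0.19 and -0.18 over all tested genes. The 18 genes below the filter included Notch3, Dll1, Dll4, Hes5, Hey1 and Ptcra, and the highest value among them was 1.33 FPKM, for Gata3.

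Among the ligands, Jag1 and Jag2 parted by subset. Jag1 averaged 0.209 ± 0.203 FPKM in L-cDC1, against 4.23 ± 1.3 FPKM in L-cDC2 (SD, n = 3 each), with a difference of -2.10 in L and -1.79 in M. Jag2 was low throughout, at 1.16 ± 0.233 FPKM in L-cDC1 and 0.112 ± 0.0939 FPKM in L-cDC2 (SD, n = 3 each), with differences of 0.96 in L and 0.86 in M. Jag1 in L-cDC1 and Jag2 in L-cDC2 lay below the filter level of 1 FPKM, so each gene passed the filter through other libraries. Such a filter favours a difference between subsets. The calls of both genes were the same under all 20 alternatives, of which 1 applied no filter. Among the sugar-adding enzymes of the receptor's outer part, Poglut1 was higher in cDC1, by 1.26 in L and 0.90 in M. Mfng, a Fringe enzyme, was lower in cDC1, with differences of -0.77 in L and -0.78 in M. Lfng was lower as well (-0.88 in L, -0.82 in M), and so was Rfng in M (-0.70). Neither call of Lfng nor that of Rfng held under median-of-ratios scaling or quantile normalization.

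Among the cleavage genes, the gamma-secretase subunit Aph1c was higher in cDC1, by 0.88 in L and 0.88 in M, and Aph1b by 1.0 in L. Aph1b and Aph1c are near-identical copies in the mouse, so their reads may be split between them. Ncstn was lower in cDC1 of M (-0.52), as was Adam17 (-0.43), though Adam17 lost its call in 12 alternatives. Psenen and Aph1a, further subunits above 5 FPKM, were not called.

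Among nuclear partners of Rbpj, the coactivator Maml3 was lower in cDC1, with differences of -1.50 in L and -1.12 in M, and averaged 0.0588 ± 0.0627 FPKM in L-cDC1 and 2.01 ± 0.453 FPKM in L-cDC2 (SD, n = 3 each). Its L-cDC1 libraries lay below the filter level of 1 FPKM, and its calls were the same under all 20 alternatives. Maml1 was lower in cDC1 of L (-0.76) and Maml2 higher in cDC1 of M (0.86). The histone acetyltransferase Ep300 was lower in cDC1 (-0.93 in L, -0.62 in M). The call of Maml1 and the M call of Ep300 ended under quantile normalization, and that of Maml2 without M-cDC1 replicate 2. Crebbp (-0.41) and Ncor1 (-0.49) were lower in cDC1 of M, and lost their calls in 10 and 16 alternatives. The corepressor Ctbp1 had 6.49, 3.66 and 3.22 FPKM in M-cDC1 and 9.69, 34.4 and 30.7 FPKM in M-cDC2, a difference of -2.12 that passed. It also had 9.78, 13.9 and 25 FPKM in L-cDC1, and its L minus M difference in cDC1 of 1.61 (SE 0.40) did not pass, with limma adjusted p = 0.127. Snw1, Hdac1 and Hdac2 were not called.

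Among ubiquitin and endocytosis regulators, Itch, a ligase of Notch receptors, was lower in cDC1, with differences of -0.84 in L and -0.91 in M. Neurl3, a relative of the ligand-acting Neuralized ligases, was lower too (-1.40 in L, -1.23 in M). The Deltex relatives Dtx3 (-0.75 in L, -0.64 in M) and Dtx3l (-0.76 in L, -0.59 in M) were also lower, while Dtx2 was not called. In M, the call of Dtx3 ended under quantile normalization and GC correction, and that of Dtx3l under median-of-ratios scaling. Numb, an antagonist of Notch, was higher in cDC1 of M by 0.69, a call that ended without M-cDC1 replicate 1, and Mib2 was not called. Among genes that Notch controls in other tissues, the cyclin Ccnd1 averaged 18.1 ± 2.16 FPKM in L-cDC1 and 84.6 ± 10.2 FPKM in L-cDC2, and 14.0 ± 1.69 FPKM in M-cDC1 and 88.5 ± 6.43 FPKM in M-cDC2 (SD, n = 3 each), with differences of -2.16 in L and -2.58 in M. The cell cycle inhibitor Cdkn1a was higher in cDC1, by 1.59 in L and 0.86 in M. Myc and Hes6 were not called. Calls of 12 of the 38 values of this wider list ended in at least 1 alternative.

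**Figure D5:**
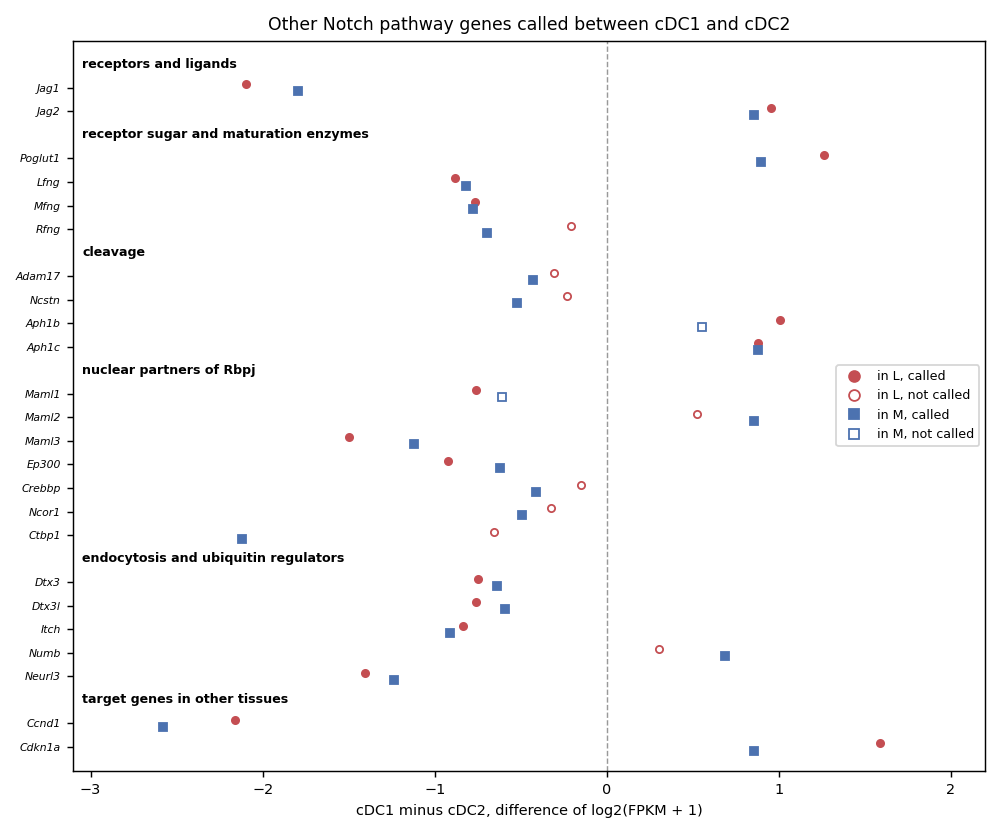
Differences of cDC1 minus cDC2, log2(FPKM + 1), of the genes of the wider Notch list that were called under at least 1 label, one row per gene grouped by role; red circles are the difference in L, blue squares that in M, filled where called. Jag1 (-2.10 in L) and Ccnd1 (-2.16 in L) lie lowest in L, and Cdkn1a (1.59 in L) and Poglut1 (1.26 in L) highest.

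Esam, Clec4a4 and Cd4, genes of the splenic cDC2 fraction that needs Notch2 in the mouse, were all lower in cDC1. Esam averaged 4.74 ± 1.69 FPKM in L-cDC1 and 50.5 ± 7.75 FPKM in L-cDC2, and 4.76 ± 1.17 FPKM in M-cDC1 and 41.2 ± 3.90 FPKM in M-cDC2 (SD, n = 3 each). Its cDC1 minus cDC2 difference was -3.20 in L and -2.89 in M. Those of Clec4a4 were -7.58 and -7.62, and those of Cd4 were -4.45 and -4.52. Between L and M none of these 3 genes was called by limma in either subset, and 0 of 3 had an unadjusted p under 0.05. In the same libraries Notch2 stood at the even level given above.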

How the data were processed

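RNA of spleen cDCs was sequenced in 12 libraries, 3 per group, after SMART-Seq HT amplification and Nextera XT preparation, per the labels' protocols. The deposited table gives FPKM, which the authors made from read counts by dividing by the length of each gene and the reads of each library. Listed in the submitters' processing notes, with no role or order given there, are STAR 2.7.9a, featureCounts 2.0.1, DESeq2 1.20.0, cutadapt 3.7, Trimmomatic 0.39 and Trim Galore 0.6.7. They list the human build GRCh38, although the symbols are of mouse genes.

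Genes reaching 1 FPKM in 3 libraries were fitted as log2(FPKM + 1) with limma 3.58.1 (R 4.3.3, intensity trend, 1 mean per group, 8 residual degrees of freedom). Benjamini-Hochberg adjustment ran over 12434 genes, with calls at an adjusted p under 0.05. The pseudocount understates changes of low genes. All 9 members were named, and wider-list genes if called or averaging 5 FPKM in a group. A few genes that these rules name are not reported here. Members and lists were chosen with earlier results of these data known.

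Alternatives were a pseudocount of 0.1, no filter, median-of-ratios scaling, quantile normalization, the compared groups alone, limma-voom, a replicate block, leaving out each library and, added later, a GC correction on the 96.7% of tested genes with a transcript GC value. For limma-voom, whole reads were recovered from FPKM and length within 0.01 read for 100% of values, and it called 44, 216, 5041, 4757 and 10 genes for L minus M in cDC1 and cDC2, cDC1 minus cDC2 in L and M, and the interaction. PCR duplicates remain, so read counts carry counting error only. The fit was tested on simulated data.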

Additional observations from a re-analysis of the deposited data

How the results depend on the processing

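Of 35 member differences in 20 alternatives (19 for the interaction, which compared groups alone cannot give), 10 changed sign in at least 1, each a value that passed no test. The farthest of them from 0 was -0.18, for Notch2, cDC1 minus cDC2 in L. With the GC correction, chosen after seeing the data, L minus M of Notch2 in cDC1 was -0.00410 and that of Rbpj in cDC2 -0.0355; with median-of-ratios scaling Rbpj was -0.0153 there and with quantile normalization -0.0404. Notch2 L minus M in cDC2 was 0.00342 with limma-voom, and its cDC1 minus cDC2 difference in L was 0.00530 with median-of-ratios scaling. With any 1 library left out, L minus M in cDC1 ranged from -0.13 to 0.18 for Notch2 and from -0.00986 to 0.22 for Adam10. In cDC2 it ranged from -0.0901 to 0.0470 for Notch2, -0.0750 to 0.106 for Rbpj, -0.211 to 0.0513 for Dtx4, -0.17 to 0.29 for Hes1 and -0.17 to 0.10 for Adam10. The interaction ranged from -0.12 to 0.18 for Notch2 and from -0.0112 to 0.27 for Adam10. The cause of these changes was not tested.

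The count of members called for L minus M in cDC1 was 0 with no filter, where 28712 genes were tested, and 0 with the cDC1 libraries alone, where fewer samples entered; with 1 library left out it ranged from 1 to 2, the second being Notch4 without M-cDC1 replicate 1. For L minus M in cDC2 it was 1 (Dtx1) with limma-voom, for the interaction 1 (Dtx1) with a pseudocount of 0.1, and for cDC1 minus cDC2 in L it ranged from 3 to 5 with 1 library left out. The wider list had 1 gene called for L minus M in cDC2 with no filter, and from 0 to 1 for L minus M in cDC1 and in cDC2 with 1 library left out, the 1 coming without M-cDC2 replicate 1 and replicate 2.

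Replicate numbers do not pair the libraries by any label, and 2 of 12 same-numbered pairs over the comparisons deviated together with a correlation over 0.1 (range -0.00171 to 0.156). Yet in 9 of these 12 pairs, the library of the first-named group correlated best with its own number in the other group. With the number as a replicate block, calls over all genes were 45 for L minus M in cDC1, 233 in cDC2, 4952 for cDC1 minus cDC2 in L, 4754 in M and 25 for the interaction, and no call of a member changed. With the compared groups alone, 17 genes were called for L minus M in cDC1 and 137 in cDC2. With limma-voom, 10 were called for the interaction, beside 37 in the deposited scale. Depth limits Notch1 and Nrarp, and Dtx1 in M-cDC1, where 12 to 16 reads carry the value.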
